A study of Mus musculus with 4 samples.

Results

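The genes described here are 44 genes of the NRF2, glutathione and thioredoxin systems, taken by name as the rows of the deposited count table that carry their symbols. The list was chosen with earlier results of these data known. All 44 symbols had a row among the 23473 gene rows of the table, and 39 of them had enough counts to be tested. The libraries were made from total RNA of cells labelled MIN6, the name of a mouse insulinoma line widely used in place of beta cells, kept in DMEM with 25 mM glucose and fetal calf serum. A stable line overexpressing TLX (the nuclear receptor that Nr2e1 encodes, with no known natural ligand) gave 2 libraries, and wild-type control cells gave the other 2. Most beta cell markers were at 0 or near it in all libraries (values below), which goes against the label, so no value here is read as one of beta cells. The sources used here do not say whether the TLX line is a single clone or a pool, which promoter drives TLX or whether the controls carry an empty vector. No label says that the 2 libraries of a group came from separate cultures, so the spread behind the p-values may be technical. That spread is estimated in part from all genes tested, not from each gene's own libraries alone.

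NRF2, encoded by Nfe2l2, is a transcription factor that KEAP1 marks for degradation until oxidants or electrophiles modify KEAP1. Freed NRF2 binds antioxidant response elements together with small MAF proteins and turns on genes that make glutathione, recycle thioredoxin, degrade haem and detoxify electrophiles. Glutathione and thioredoxin are the main thiol reductants of the cell, and both draw their electrons from NADPH. Beta cells are known for low levels of several hydrogen peroxide-removing enzymes, and for TXNIP, a glucose-induced inhibitor of thioredoxin.

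Sequences before the start sites of these genes were taken from RefSeq (GRCm38.p6), which held 250 upstream bases for at least 1 start of 37 of the 44 genes. Short motifs were searched on both strands. The core of the antioxidant response element, TGACNNNGC, lay in a window of 6 of the 37 genes, against 11.5% of 27025 genes with a window. The AP-1 element TGANTCA, which overlaps the antioxidant core where its letters run on into GC, lay in 5 of 37 genes, against 7.82% of all genes. The E-box CACGTG lay in 2 of 37, Glrx2 and Prdx4, against 6.86% of all genes. Of the genes described below as higher with TLX, 6 had a window, 2 of these held the antioxidant core (Gclm and Txnrd1) and 1 held the AP-1 element (Srxn1). Of those that did not pass, 24 had a window and 3 held the antioxidant core (Nfe2l2, Prdx1 and Sod1). The AP-1 element lay in 3 of these 24 (Glrx, Gstp1 and Prdx1). The 3 genes lower with TLX all had a window, and 0 of them held either element. The matches are shown so that genes with the same element and different values can be set side by side. Each sequence runs 5′ to 3′ towards the gene, and capitals mark the matched letters. The Gclm stretch is chr3:122245392-122245461 (plus strand), that of Txnrd1, at the second of its 3 annotated starts, chr10:82859081-82859150 (plus), that of Srxn1 chr2:152105399-152105488 (plus), that of Prdx1 chr4:116685434-116685503 (plus), that of Sod1 chr16:90220672-90220741 (plus) and that of Nfe2l2 chr2:75704844-75704913 (minus). In Prdx1 the antioxidant core and an AP-1 element share letters.
Gclm: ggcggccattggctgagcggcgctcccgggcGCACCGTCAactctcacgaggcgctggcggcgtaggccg
Txnrd1: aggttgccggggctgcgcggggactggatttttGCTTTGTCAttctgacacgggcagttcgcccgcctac
Srxn1: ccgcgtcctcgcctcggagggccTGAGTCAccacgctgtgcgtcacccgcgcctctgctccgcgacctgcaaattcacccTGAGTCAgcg
Prdx1: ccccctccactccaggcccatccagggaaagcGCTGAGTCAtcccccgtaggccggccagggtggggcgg
Sod1: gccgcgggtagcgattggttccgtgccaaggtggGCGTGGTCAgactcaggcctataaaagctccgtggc
Nfe2l2: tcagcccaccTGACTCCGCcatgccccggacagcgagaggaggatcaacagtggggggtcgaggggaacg

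The gene rows held 8490145 and 8136185 counts in the TLX libraries and 8435976 and 9788646 in the control libraries. Levels below are CPM, counts per 1000000 gene-row counts after TMM scaling (edgeR's trimmed-mean factors), and a difference is called at an adjusted p under 0.05 over all 11024 genes tested. Nr2e1, the check of the labels, stood at 39.1 and 35.5 CPM in the TLX libraries, against 0.958 and 1.01 CPM in control. Of 14 beta cell genes, 9 were at 0 in all 4 libraries (Iapp, Chga, Nkx6-1, Neurod1, Slc2a2, Abcc8, Kcnj11, Pcsk1 and Pcsk2). The list summed to 20.8 and 21.7 CPM in TLX and 20.7 and 18.4 CPM in control. Ins1 had 11.3 and 8.83 CPM in TLX and 9.34 and 8.66 CPM in control. Ins2 had 3.70 and 6.31 CPM in TLX and 5.39 and 4.03 CPM in control. Pdx1 had 3.82 and 4.16 CPM in TLX and 4.19 and 4.03 CPM in control. Mafa was lower still but had reads in every library. The 13 mesenchymal genes summed to 8604 and 8267 CPM in TLX and 7992 and 7584 CPM in control. Of these, 8 were tested, with 2 higher and 2 lower. Col1a2 alone had 3884 and 3835 CPM in TLX and 3291 and 3084 CPM in control, and Vim and S100a4 held at least 1516 CPM in every library, whereas Lum was at 0 and Col3a1, Dcn, Thy1 and Acta2 were under 1 CPM. The 4 duct genes summed to 722 and 739 CPM in TLX, against 893 and 976 CPM in control, and Spp1 gave 709 and 725 CPM of this in TLX and 867 and 947 CPM in control, while Krt19 was at 0. The 6 leukocyte genes summed to 103 and 105 CPM in TLX, against 120 and 122 CPM in control, with Emr1 at 0 and Ptprc and Itgam under 1 CPM. Cd68 had 43.3 and 45.4 CPM in TLX and 59.2 and 68.2 CPM in control. Cd14 had 43.1 and 41.9 CPM in TLX and 43.1 and 36.2 CPM in control. Lyz2 had 16.4 and 16.9 CPM in TLX and 17.4 and 17.3 CPM in control. Other islet, acinar and endothelial genes summed to at most 2.31 CPM in any library. Of 3 tested duct genes 1 was higher and 2 lower, and of 3 tested leukocyte genes 1 was lower. Over all genes tested, 7.79% were higher and 9.04% lower. The part of these markers in the results below was not tested. The Rn45s row, ribosomal RNA, took 12.2% and 16.7% of gene-row counts in TLX and 14.2% and 14.3% in control.

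With TLX, 11 of the 39 tested genes were higher and 3 were lower, and 25 did not pass. The genes that rose include both subunits of the enzyme that limits glutathione synthesis, glutathione reductase, haem oxygenase 1, cytosolic thioredoxin and its reductase. Those that fell are Txnip, Nfe2l1 and Gsto2. Among all genes tested 16.8% were called, 7.79% higher and 9.04% lower. Since the described genes were chosen with earlier results of these data known, these shares are set beside them as description only. The median log2 fold change of the 39 genes was 0.04, against 0.00 over all genes tested, and their median absolute value 0.18, against 0.16. In 24 of the 39 the groups did not overlap, with TLX above control in 16 and below in 8. The groups did not overlap in 57.1% of all genes tested. The count of higher genes fell when either TLX replicate was left out, as did the count over all genes tested. DESeq2 called 7 of the 39 genes higher. In either direction it called 8.25% of the genes to which it gave an adjusted p. Gclc, Gclm, Gsr, Hmox1 and Txnrd1 were higher, and Nfe2l1, Txnip and Gsto2 lower, in each of the 9 alternatives that set no block. In bulk RNA a difference in the share of cells of a type and in RNA per cell cannot be told apart.

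**Figure D1:**
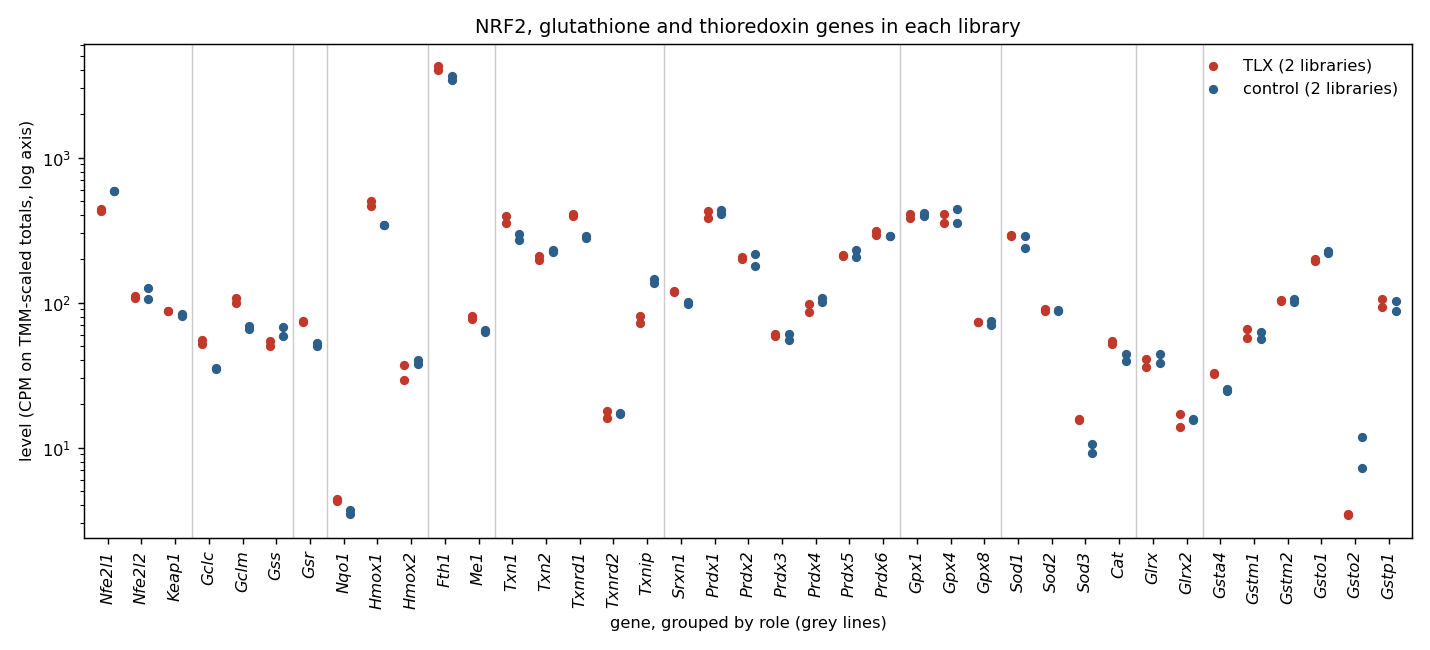
Level of each of the 39 tested genes in each library (CPM, log axis), TLX in red left of control in blue, grouped by role. Fth1 lies between 3432 and 4247 CPM in the 4 libraries. In 15 of the 39 genes the libraries of the groups overlap, as they do in 4732 of all 11024 genes tested.

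Of the 3 regulators, Nfe2l1 fell and the other 2 did not pass. Nfe2l1 encodes NRF1, a relative of NRF2 that sits in the endoplasmic reticulum membrane and controls proteasome genes. It stood at 428 and 439 CPM in the TLX libraries, against 588 and 585 CPM in control. Both TLX libraries lay below both control libraries, and the replicates of each group lay close together (log2 fold change -0.44, SE 0.08, adjusted p = 0.00026). Nfe2l2 itself was at 111 and 107 CPM with TLX, against 105 and 126 CPM in control, so the groups overlapped (log2 fold change -0.09, SE 0.09, adjusted p = 0.546). The sign of this value was positive, at 0.05, without control replicate 2. Keap1, the repressor of NRF2, had 87.5 and 87.9 CPM with TLX, against 83.0 and 81.2 CPM in control. Its groups did not overlap, but the difference was small (log2 fold change 0.10, SE 0.08, adjusted p = 0.473). These RNA levels do not measure NRF2 protein, which KEAP1 controls after translation.

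Both subunit genes of glutamate-cysteine ligase, the rate-limiting enzyme of glutathione synthesis, rose, and the gene of the second enzyme did not pass. Gclc, the catalytic subunit, was at 54.9 and 52.0 CPM with TLX, against 35.5 and 34.5 CPM in control (1.53-fold; log2 fold change 0.61, SE 0.09, adjusted p = 6.66e-05). Gclm, the modifier subunit whose upstream antioxidant core is printed above, was at 107 and 99.0 CPM with TLX, against 68.8 and 66.0 CPM in control (1.53-fold; log2 fold change 0.62, SE 0.09, adjusted p = 1.66e-05). The 2 subunits thus differed from control by nearly the same factor. Gss, glutathione synthetase, which adds glycine in the last step, lay the other way, at 54.2 and 50.2 CPM with TLX against 67.3 and 58.4 CPM in control. Both TLX libraries were below both control libraries, but the test was missed (log2 fold change -0.26, SE 0.09, adjusted p = 0.0595). Without control replicate 2, on total counts and with no filter on low counts Gss passed (adjusted p of 0.00345, 0.0472 and 0.0471). Gsr, glutathione reductase, which restores glutathione with NADPH, rose to 73.1 and 74.7 CPM with TLX, against 52.7 and 50.4 CPM in control (1.43-fold; log2 fold change 0.52, SE 0.09, adjusted p = 0.00016). In the GENCODE M21 annotation, exons of Gclm overlap Gm6061 on the same strand and Gm17494 on the other. Exons of Gss overlap 3 genes on the other strand. Whether counting used strand is not given, so shared reads cannot be told apart there. Strand would not separate reads of Gclm from those of Gm6061.

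Of the 5 thioredoxin genes, the cytosolic pair rose, the inhibitor gene fell and the mitochondrial pair did not pass. Txn1, cytosolic thioredoxin, rose to 395 and 354 CPM with TLX, against 298 and 270 CPM in control (1.32-fold; log2 fold change 0.40, SE 0.08, adjusted p = 0.00122). The lower TLX library was still above the higher control library, yet without TLX replicate 1 the gene did not pass (log2 fold change 0.32, adjusted p = 0.0904). Txnrd1, the cytosolic selenoenzyme that reduces thioredoxin, rose to 393 and 409 CPM with TLX, against 289 and 277 CPM in control (1.42-fold; log2 fold change 0.50, SE 0.08, adjusted p = 5.05e-05). Txn2, mitochondrial thioredoxin, had 209 and 196 CPM with TLX, against 224 and 232 CPM in control (log2 fold change -0.17, SE 0.08, adjusted p = 0.132). Its reductase Txnrd2 had 16.0 and 17.9 CPM with TLX, against 17.4 and 17.1 CPM in control, with overlapping groups (log2 fold change -0.03, SE 0.13, adjusted p = 0.918). Whether the cytosolic and mitochondrial genes differ from each other in their response was not tested.

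Txnip, which binds thioredoxin and holds it inactive, showed the smallest p of the 39 genes. It fell to 72.4 and 80.7 CPM with TLX, against 135 and 145 CPM in control (log2 fold change -0.88, SE 0.08, adjusted p = 1.17e-07). The highest TLX library was thus well below the lowest control library. Exons of Txnip overlap the noncoding gene Gm15441 on the other strand, which was chosen after its values were seen. Gm15441 stood at 17.9 and 17.5 CPM with TLX, against 32.1 and 37.8 CPM in control (log2 fold change -0.98, SE 0.12, adjusted p = 3.64e-06). Reads of the pair cannot be told apart without strand.

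**Figure D2:**
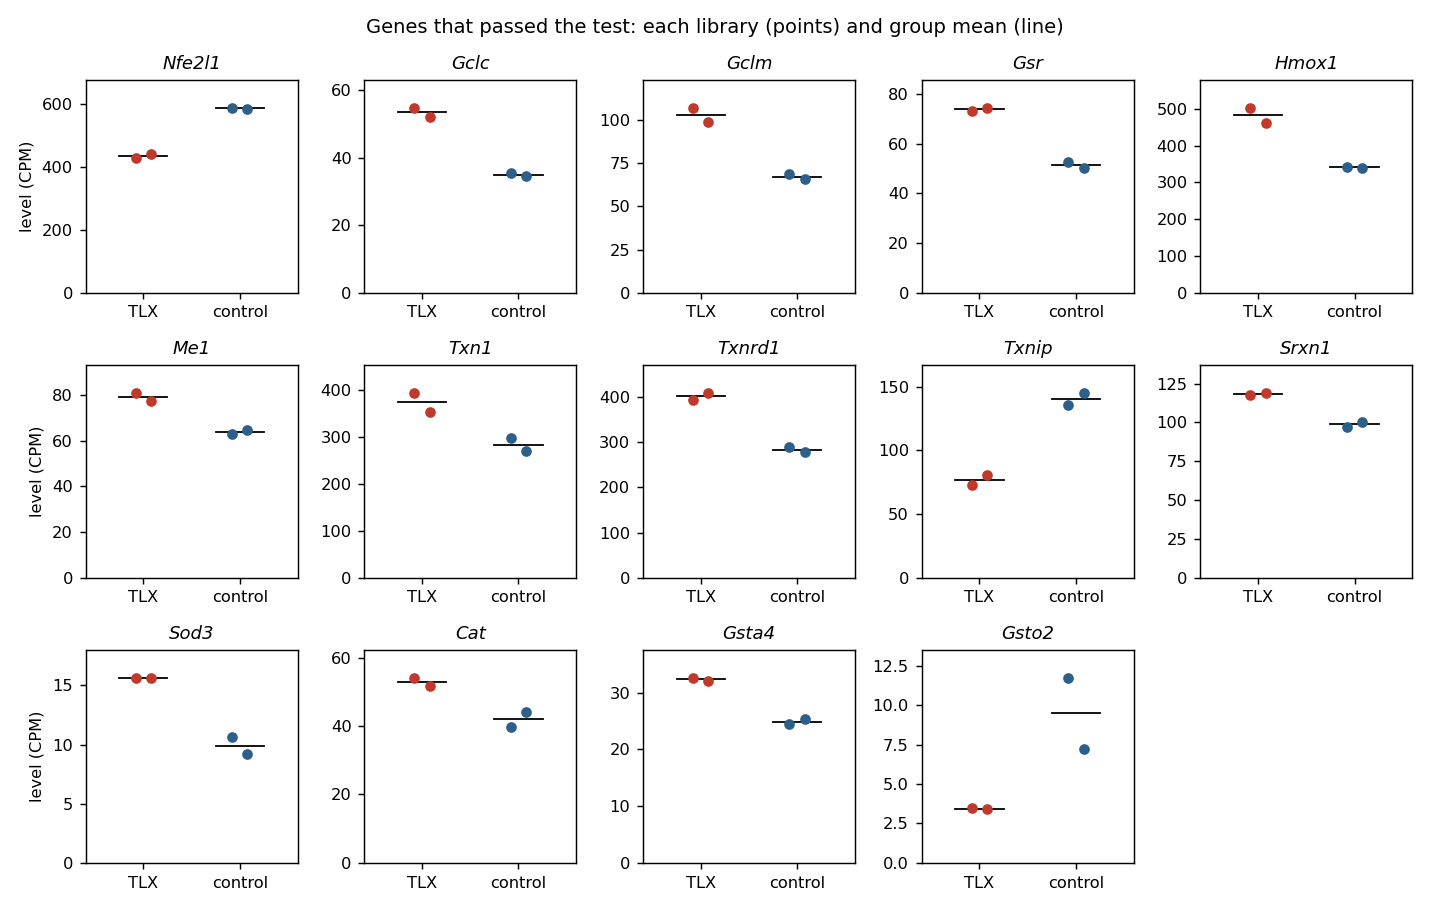
Level (CPM, axes from 0) of each of the 14 genes that passed the test in each library (points) with the group mean (line), TLX left of control. No panel shows overlap between the groups. The genes were picked by the test on the same libraries, so this adds no support, and 57.1% of all genes tested did not overlap either. Gsto2 has the widest relative gap between its control libraries.

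Sulfiredoxin rose, and none of the 6 peroxiredoxin genes passed. Of these 7 genes 14.3% were called, near the 16.8% over all genes tested. Srxn1, which repairs overoxidised peroxiredoxins and carries AP-1 elements upstream, was at 118 and 119 CPM with TLX, against 97.3 and 100 CPM in control (log2 fold change 0.26, SE 0.08, adjusted p = 0.0246). The call was lost without TLX replicate 1 (adjusted p = 0.192), without TLX replicate 2 (0.228) and in DESeq2 (0.11), with log2 fold changes between 0.25 and 0.27. Peroxiredoxins reduce hydrogen peroxide with electrons from thioredoxin, except Prdx6, which uses glutathione. Prdx1, which has the antioxidant core upstream, stood at 426 and 382 CPM with TLX, against 408 and 433 CPM in control (log2 fold change -0.06, SE 0.08, adjusted p = 0.674). Its groups overlapped, as did those of Prdx2, Prdx3 and Prdx5, whose log2 fold changes were 0.04, 0.05 and -0.05, with SEs of 0.08 to 0.09. Prdx6 had 311 and 292 CPM with TLX, against 288 and 286 CPM in control (log2 fold change 0.07, SE 0.08, adjusted p = 0.565). Prdx4, the peroxiredoxin of the endoplasmic reticulum, had 97.1 and 86.2 CPM with TLX, against 100 and 108 CPM in control (log2 fold change -0.18, SE 0.09, adjusted p = 0.154). It passed only without control replicate 1 among the alternatives that set no block (adjusted p = 0.0489). Of the 44 genes 13, among them Prdx1, Prdx2, Txn1, Gpx4, Sod1, Glrx2, Gstm1 and Gstp1, have transcripts with a stretch of at least 200 bases at 95% identity or more in another GENCODE M21 gene, so some of their reads may be shared. Exons of Keap1, Hmox2, Txnrd2, Prdx2, Prdx5 and Me1 overlap a gene on the other strand, with the same limit as for Gss.

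Glutathione peroxidases, which reduce peroxides with glutathione, gave no call among 3 tested genes. Over all genes tested 16.8% were called, so no call among 3 does not set these genes apart. Gpx1, the cytosolic form, was at 410 and 382 CPM with TLX, against 416 and 394 CPM in control (log2 fold change -0.03, SE 0.08, adjusted p = 0.827). Gpx4, which reduces lipid peroxides in membranes, was at 410 and 355 CPM with TLX, against 438 and 351 CPM in control (log2 fold change -0.04, SE 0.09, adjusted p = 0.809). In both genes replicates of a group were farther apart than the group means. Gpx8, of the endoplasmic reticulum, was at 73.1 and 73.7 CPM with TLX, against 69.7 and 74.5 CPM in control (log2 fold change 0.02, adjusted p = 0.892). The secreted form Gpx3 had 2 and 5 counts with TLX and 5 and 2 in control, and Gpx7 had 0 counts in every library. In these libraries 0 counts leave room for a level of at most 0.302 to 0.379 CPM (3 counts, counting error only).

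Of the superoxide dismutases and catalase, Sod3 and Cat rose and Sod1 and Sod2 did not pass. Sod3, the secreted dismutase, was at 15.6 and 15.6 CPM with TLX, against 10.7 and 9.16 CPM in control (1.58-fold; log2 fold change 0.66, SE 0.15, adjusted p = 0.00319). Its counts were low, at 135 and 124 with TLX and 89 and 91 in control, and DESeq2 did not call it (adjusted p = 0.0664). Cat, the peroxisomal enzyme that splits hydrogen peroxide, was at 54.1 and 51.9 CPM with TLX, against 39.6 and 44.2 CPM in control (1.26-fold; log2 fold change 0.33, SE 0.09, adjusted p = 0.0162). It did not pass without TLX replicate 1 (adjusted p = 0.158), TLX replicate 2 (0.0604) or control replicate 1 (0.0634), nor in DESeq2 (0.135). Sod1, the cytosolic dismutase with an antioxidant core upstream, was at 294 and 287 CPM with TLX, against 286 and 236 CPM in control. The control libraries were far apart, and the gene did not pass with both (log2 fold change 0.15, SE 0.08, adjusted p = 0.231) but did without control replicate 1 (0.30, adjusted p = 0.00346). Sod2, the mitochondrial dismutase, was at 90.5 and 86.8 CPM with TLX, against 89.5 and 86.8 CPM in control (log2 fold change 0.01, SE 0.08, adjusted p = 0.953).

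Among the haem, iron, quinone and NADPH genes, Hmox1 and Me1 rose. Hmox1, the inducible haem oxygenase, was at 504 and 461 CPM with TLX, against 343 and 340 CPM in control (1.41-fold; log2 fold change 0.50, SE 0.08, adjusted p = 6.9e-05). Hmox2, the constitutive form, was at 37.2 and 29.1 CPM with TLX, against 40 and 37.9 CPM in control (log2 fold change -0.22, SE 0.11, adjusted p = 0.181). Me1, cytosolic malic enzyme, which makes NADPH, was at 81.0 and 77.2 CPM with TLX, against 62.9 and 64.8 CPM in control (1.24-fold; log2 fold change 0.31, SE 0.09, adjusted p = 0.014). Its call was lost without TLX replicate 1 (adjusted p = 0.191), without TLX replicate 2 (0.0687) and in DESeq2 (0.0936). Fth1, the heavy chain of the iron store ferritin, was at 4247 and 4013 CPM with TLX, against 3663 and 3432 CPM in control. Its groups did not overlap, and the gene missed the test (log2 fold change 0.22, SE 0.09, adjusted p = 0.119) but passed in DESeq2 (0.0497) and with no filter on low counts (0.0308). Nqo1, a quinone reductase often used as a marker of NRF2 activity, had few reads, with 37 and 35 counts with TLX and 29 and 37 in control. Its levels of 4.28 and 4.42 CPM with TLX, against 3.47 and 3.73 CPM in control, differed by less than the error allows to call (log2 fold change 0.27, SE 0.24, adjusted p = 0.503).

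Glutathione transferases attach glutathione to electrophiles. Of 9 genes 6 were tested, 1 rose and 1 fell. That is 33.3% called, against 16.8% of all genes tested (7.79% higher and 9.04% lower), and is description only. Gsta4, whose enzyme acts on the lipid peroxidation product hydroxynonenal, was at 32.6 and 32.0 CPM with TLX, against 24.4 and 25.3 CPM in control (1.30-fold; log2 fold change 0.38, SE 0.11, adjusted p = 0.0177). It did not pass without TLX replicate 1 (adjusted p = 0.112), without TLX replicate 2 (0.0733) or in DESeq2 (0.17). Gsto2, an omega-class enzyme that reduces dehydroascorbate, fell to 3.47 and 3.41 CPM with TLX, against 11.7 and 7.25 CPM in control. These levels rest on 30 and 27 counts with TLX and 98 and 72 in control (log2 fold change -1.44, SE 0.24, adjusted p = 0.000205), and leaving out a library moved the value between -1.77 and -1.07. Its neighbour Gsto1 was at 200 and 195 CPM with TLX, against 227 and 220 CPM in control (log2 fold change -0.18, SE 0.07, adjusted p = 0.108). Gstm1, Gstm2 and Gstp1 had overlapping groups and log2 fold changes of 0.06, 0.00 and 0.07 (SE 0.08 to 0.09). Gstm5 and Gstt1 were at 0 counts in every library, and Gstt2 had 1 count in 1 TLX library. The glutaredoxins Glrx and Glrx2, which reduce mixed disulfides with glutathione, also overlapped between groups (log2 fold change -0.11, SE 0.10, and -0.01, SE 0.14).

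**Figure D3:**
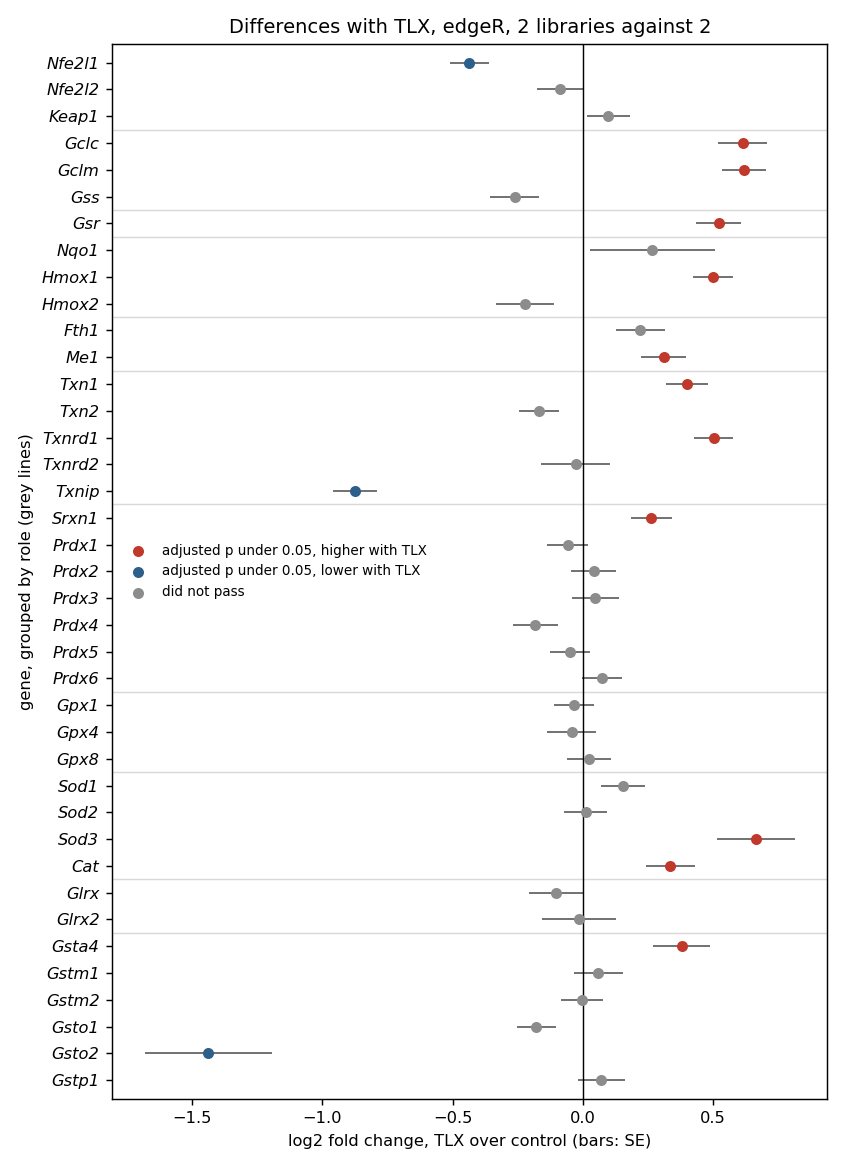
Log2 fold change, TLX over control, of the 39 tested genes with bars of 1 SE, red where higher and blue where lower at an adjusted p under 0.05, grey otherwise. The 11 rises lie between 0.26 and 0.66, and the falls of Nfe2l1, Txnip and Gsto2 lie at -0.44, -0.88 and -1.44.

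Levels per length order the genes by abundance. Divided by the deposited feature length, ferritin heavy chain was far above the rest, at 2733 ± 110 CPM per kb with TLX and 2348 ± 108 in control (SD, n = 2 each). Sod1 followed at 448 ± 8 with TLX and 403 ± 55 in control, and Gpx1 at 378 ± 19 with TLX and 387 ± 15 in control, and in control these 2 genes differed by less than the spread between libraries. Txn1 was at 357 ± 28 CPM per kb with TLX and 271 ± 19 in control, Gpx4 at 319 ± 32 with TLX and 329 ± 51 in control, and Prdx5 at 307 ± 1 with TLX and 318 ± 25 in control. Gpx4 and Prdx5 did not differ beyond their spread in either group, whereas Txn1 stood above Prdx5 with TLX and below it in control. Txnrd1 was at 99.8 ± 2.9 with TLX and 70.5 ± 2.2 in control, well below its substrate Txn1, and Txnip at 27.3 ± 2.1 with TLX and 50.1 ± 2.5 in control. Gclm was above its partner Gclc in both groups, at 49.8 ± 2.9 against 15.6 ± 0.6 CPM per kb with TLX and 32.5 ± 1.0 against 10.2 ± 0.2 in control. Nfe2l1 was above Nfe2l2, at 89.1 ± 1.6 against 44.1 ± 1.3 with TLX and 120.5 ± 0.5 against 46.9 ± 6.0 in control. Among the tested genes, the lowest levels were those of Gsto2 with TLX, at 2.47 ± 0.03 against 6.81 ± 2.28 in control, and of Nqo1 in control, at 2.80 ± 0.06 with TLX against 2.32 ± 0.11 in control.

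A list of 139 other genes of the same pathways, drawn up with earlier results of these data known, held 96 tested genes, of which 14 were higher and 13 lower. That is 28.1% called, against 35.9% of the 39 genes above and 16.8% of all genes tested, and the median log2 fold change was 0.05. The genes above were also chosen with earlier results known, so these shares are description only. Both counts fell when either TLX replicate was left out, as did those over all genes tested. In DESeq2 the counts were 5 and 9. Over all genes tested DESeq2 gave 355 higher and 484 lower, where the main test gave 859 and 997. Of 12 genes of NADPH supply, which feeds both reductases, 5 rose and 0 fell (41.7% called). Among these 5, G6pdx lost its call in 2 of the 9 alternatives that set no block. Idh2 was not called in DESeq2 (adjusted p = 0.104). G6pdx and Idh2 are named after their values were seen. Pgd, a dehydrogenase of the pentose phosphate pathway, was at 394 ± 12 CPM with TLX and 247 ± 14 CPM in control (log2 fold change 0.68, SE 0.08, adjusted p = 1.25e-06), and cytosolic Idh1 at 44.7 ± 0.02 CPM with TLX and 33.2 ± 0.5 CPM in control (log2 fold change 0.43, SE 0.10, adjusted p = 0.00323; SD, n = 2 each). The mitochondrial NAD kinase gene Nadk2 was at 8.67 and 13.4 CPM with TLX, against 6.71 and 7.75 CPM in control (log2 fold change 0.59, SE 0.20, adjusted p = 0.0415), with 0.26 and an adjusted p of 0.578 without TLX replicate 2, 0.0755 without control replicate 1 and 0.249 in DESeq2.

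Of 13 tested genes of cystine and glutathione supply, 1 was higher and 3 were lower, or 30.8% called. Over all genes tested 7.79% were higher and 9.04% lower, and 1 of 13 higher is about that share. Values named in this paragraph were chosen after they were seen. Abcc5, an export pump of the multidrug resistance family, was at 59.9 and 61.3 CPM with TLX, against 52.7 and 47.7 CPM in control (log2 fold change 0.27, SE 0.09, adjusted p = 0.04). It did not pass without TLX replicate 1 (adjusted p = 0.165), TLX replicate 2 (0.237) or control replicate 2 (0.18), on total counts (0.0541), on all feature rows (0.0586) or in DESeq2 (0.23). Slc7a11, the cystine importer that NRF2 and ATF4 both control, was at 21.7 and 23.7 CPM with TLX, against 30.1 and 28.8 CPM in control (log2 fold change -0.37, SE 0.11, adjusted p = 0.0251). The call was lost without TLX replicate 1 (adjusted p = 0.228), without TLX replicate 2 (0.0542) and in DESeq2 (0.212). Chac1, which degrades glutathione and is an ATF4 target, fell to 133 and 127 CPM with TLX, against 216 and 185 CPM in control (log2 fold change -0.63, SE 0.08, adjusted p = 1.13e-05). Slc3a2, the heavy chain that partners Slc7a11, was at 353 and 339.9 CPM with TLX, against 426 and 401 CPM in control (log2 fold change -0.26, SE 0.08, adjusted p = 0.0223), and did not pass without TLX replicate 1 (0.159), TLX replicate 2 (0.302) or control replicate 1 (0.0507).

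Of 13 tested genes of NRF2 partners and turnover, 1 was higher and 3 lower, which is again 30.8% called, and their values too were chosen after they were seen. Over all genes tested 16.8% were called, with 7.79% higher and 9.04% lower. As before, 1 of 13 higher is about the share over all genes. Bach1, a repressor that competes with NRF2 for antioxidant response elements, was at 28.9 and 32.8 CPM with TLX, against 24.7 and 24 CPM in control (log2 fold change 0.34, SE 0.11, adjusted p = 0.0393). It did not pass without TLX replicate 2 (adjusted p = 0.346), without control replicate 2 (0.0779), on all feature rows (0.0502) or in DESeq2 (0.257). Maff, a small MAF protein gene, fell to 266 and 245 CPM with TLX, against 384 and 352 CPM in control (log2 fold change -0.52, SE 0.08, adjusted p = 4.93e-05). Sqstm1, the autophagy receptor p62 that binds KEAP1, was at 1263 and 1221 CPM with TLX, against 1659 and 1516 CPM in control (log2 fold change -0.35, SE 0.09, adjusted p = 0.0054, and 0.104 without TLX replicate 2). Pgam5, a mitochondrial phosphatase that binds KEAP1, was at 95.4 and 92.4 CPM with TLX, against 123 and 117 CPM in control (log2 fold change -0.35, SE 0.08, adjusted p = 0.00344, and 0.0954 without TLX replicate 2). Of 19 other detoxifying enzymes 2 were higher and 4 lower (31.6% called), and by the naming rule the largest falls of the 139-gene list among called genes of at least 5 CPM were those of Adh7, an alcohol dehydrogenase, Slc6a9, a glycine transporter, and Cyb5r1, a cytochrome b5 reductase, with log2 fold changes of -0.71, -0.65 and -0.64 (SE 0.08 to 0.09, adjusted p between 1.98e-06 and 8.14e-06).

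**Figure D4:**
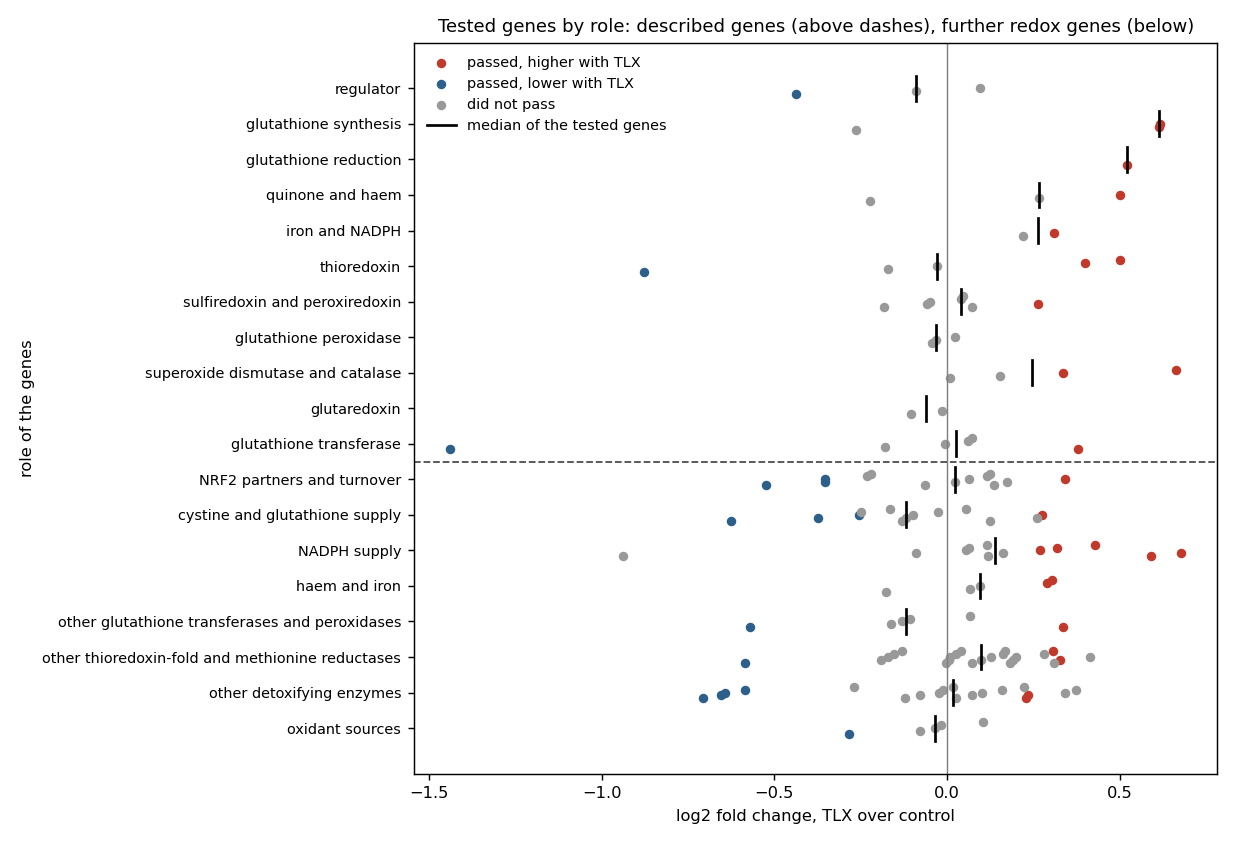
Log2 fold change, TLX over control, of every tested gene by role, the 39 described genes above the dashed line and the 96 further redox genes below, with a black line at each group's median. Called genes of glutathione synthesis and NADPH supply lie to the right of 0, whereas called genes of NRF2 partners and of cystine and glutathione supply lie mostly to the left. Of all tested genes in these roles, 2 of 3, 10 of 12, 7 of 13 and 4 of 13 lie to the right. The median of the NRF2 partners is 0.02. Over all genes tested 5522 lie above 0 and 5502 below.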

How the data were processed

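The authors deposited 1 table of raw counts, whole numbers per feature and library, and the file headers also name a feature length for each row. TopHat2 2.0.13 and build mm9 come from the submitters' processing notes, while for the counting program, the annotation and strandedness the entry is not given in the sources used here. Rows named for FANTOM3 clones, 33353 in number (58.7% of all), were kept out of library sizes and tests, since clones can repeat the reads of genes. The 23473 gene rows went through filterByExpr (minimum count of 10) and TMM scaling. TLX was compared with control by the quasi-likelihood F-test of edgeR 4.0.16 in R 4.3.3. Each gene had 2 residual degrees of freedom. The test also moderates each gene's variance towards the trend over all genes tested. This adds prior degrees of freedom, so the p-values do not rest on the residual ones alone. P-values were adjusted by Benjamini-Hochberg over the 11024 genes tested, with a threshold of 0.05. The SE is the size of the log2 fold change divided by the square root of F. The scripts were tested on simulated counts. The median over genes of the chi-square between 2 libraries' counts was 0.718 for the TLX pair, 1.07 for the control pair and 1.99 to 2.28 between groups, against 0.455 for counting error alone, so no library was taken for a repeat of another. This does not show separate cultures. The naming rule took every one of the 44 genes and, of the other redox genes called at 5 CPM or more, the 3 highest and 3 lowest log2 fold changes. The 44 genes and all lists were chosen with earlier results of these data known. Alternatives were DESeq2 1.42.0 (its size factors and its Wald test), total counts, no filter, a replicate block, all feature rows and leaving out each library. RefSeq windows and GENCODE M21 overlaps use GRCm38, so coordinates of the counted features are not printed.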

Additional observations from a re-analysis of the deposited data

How the results depend on the processing

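Of 504 values of single named genes under the 9 alternatives that set no block, 438 kept their direction and their side of the threshold, 38 lost the call and 7 gained it. Only called genes can lose a call, so the 438 also hold values of genes that did not pass and stayed so. Of the described genes, Txn1, Srxn1, Sod3, Cat, Gsta4 and Me1 lost the call in at least 1 of these alternatives. The 21 that changed sign belong to 15 genes that did not pass, each in a fit that leaves out a library. Leaving out each library in turn gave log2 fold changes of -0.2136 to 0.0502 for Nfe2l2, -0.1106 to 0.0548 for Txnrd2, -0.1420 to 0.0196 for Prdx1, -0.0941 to 0.1809 for Prdx2, -0.0202 to 0.1194 for Prdx3, -0.1298 to 0.0303 for Prdx5, -0.0852 to 0.0169 for Gpx1 and -0.1959 to 0.1221 for Gpx4. It gave -0.0245 to 0.0728 for Gpx8, -0.0225 to 0.0398 for Sod2, -0.2010 to 0.0038 for Glrx, -0.1815 to 0.1253 for Glrx2, -0.0501 to 0.1563 for Gstm1, -0.0414 to 0.0276 for Gstm2 and -0.0392 to 0.1815 for Gstp1. With 1 library left in a group, that library is assumed to vary like the other group's. Leaving out a library gave 6 to 11 described genes higher and 3 to 4 lower, 4 to 13 and 7 to 14 of the other redox genes, and 388 to 993 and 585 to 1060 of all genes. DESeq2 called 7 described genes higher, 5 other redox genes higher, and 355 higher and 484 lower over all genes. The replicate numbers share no stated culture or day, and across genes the difference between replicates 1 and 2 in TLX correlated with that in control at 0.108. With the replicate number as a block 13 described genes were higher and 7 lower, Sod1 and Fth1 (higher) and Gss, Txn2, Prdx4 and Gsto1 (lower) being the ones that gained the call, with 1495 of all genes higher and 1487 lower. Low counts limit Nqo1, Gsto2 and Sod3.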
